A study of Saccharomyces cerevisiae with 18 samples.

Results

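Genes of zinc homeostasis in the budding yeast Saccharomyces cerevisiae were followed across an ethanol stress experiment. They were ZRT1, ZRT2, ZRT3, ZRC1, ZAP1, ZPS1, IZH1, IZH2 and IZH4, taken by gene symbol from the annotation of the array probes, and they were 9 of 5650 named genes. All 9 of 9 were found, each with 1 probe. The 9 were chosen from their ratios in all 6 groups of the experiment, so their own values are given as a description, without a test. Tests are given for other zinc genes, which were not chosen by that rule. Their lists were still drawn up with earlier results of these data known, so they are not an independent set.

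Each of 18 arrays compared the RNA of 1 culture with a reference pool of RNA from 3 W303-1A cultures without ethanol, by hybridising both to the same array in different dyes. The 6 groups were the laboratory parent strain W303-1A and its ethanol-tolerant mutants SM1 and CM1, each at 0% and at 6.5% (v/v) ethanol, with 3 separate cultures and 3 arrays in every group. The inoculum of every culture was late exponential and unstressed and of its own strain, and the RNA came from equal numbers of cells. Each mutant is a single strain, so a difference from the parent belongs to that strain. The mutants' alleles and the sampling time are not given in the sources used here, and neither is whether the pooled W303-1A cultures were the same 3 cultures that were hybridised. Replicate 1 of every group carried the dyes the other way round.

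Values are log2 ratios of culture over pool, so a value of 0 means the level of the pool. The unstressed parent cultures hybridised here did not lie at 0 for every gene, with a mean of 0.13 for ZRT1 and 0.60 for IZH2. The ratio of a gene says nothing of its level against another gene. The direction of the ratio was not stated with the values. The columns were read as red over green, and the arrays that the labels give as dye-swapped were turned. The heat shock gene HSP12 had deposited values of 8.12 and 7.92 in the stressed parent where the dyes were normal, and of -7.01 where they were swapped. For the zinc genes themselves, the deposited swapped array had the opposite sign to both other arrays in 6 of 6 groups for ZRT1, in 4 for ZRT3, ZPS1 and IZH1, in 3 for IZH2, in 2 for ZAP1 and IZH4, in 1 for ZRC1 and in 0 for ZRT2. The swapped array of each ethanol group and CM1 6.5% replicate 2 differed most from the fit over all genes, with limma array weights of 0.216 to 0.291 where the other 14 ranged from 0.495 to 3.42, and values without single arrays are given where they matter. Differences between groups are given ± the standard error of a linear model (limma, 3 arrays per group) with a term for the dye orientation. In these RNA extracts, fewer cells expressing a gene and less of its RNA per cell cannot be told apart.

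Zinc uptake in this yeast is run by Zap1, a transcription factor that senses the metal and activates its target genes when zinc is scarce. Its targets include the plasma membrane zinc transporters Zrt1, of high affinity, and Zrt2, of lower affinity, and the gene of Zap1 itself. They also include the pair that handles the vacuolar store, Zrt3, which releases zinc to the cytosol, and Zrc1, which loads it. Zps1 is a secreted or cell wall protein made under zinc limitation, and the Izh proteins are membrane proteins of the PAQR receptor family linked to zinc metabolism. Zinc is a cofactor of alcohol dehydrogenase, and zinc supply is known to bear on ethanol tolerance in brewing and laboratory yeast.

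ZRT1 (YGL255W) stood lower with ethanol in the parent and higher with ethanol in CM1. In W303-1A without ethanol its ratios were 0.0064, 0.23 and 0.15 in replicates 1, 2 and 3, and with 6.5% ethanol they were -0.78, -0.87 and -0.74. In SM1 they were -1.61, -1.65 and -1.15 without ethanol and -1.17, -0.73 and -0.89 with it. In CM1 they were -0.95, -1.25 and -0.90 without ethanol and 1.07, 1.42 and 0.94 with it. All 3 CM1 cultures with ethanol lay above every other culture of the study, and the 3 unstressed parent cultures lay next, above the remaining 12 of the 18. The fitted difference between 6.5% and 0% ethanol was -0.92 ± 0.21 in W303-1A, with the 2 groups apart. It was 0.54 ± 0.21 in SM1, where the groups overlapped, and 2.17 ± 0.21 in CM1, a 4.51-fold higher ratio with the groups apart. Leaving out each array in turn kept the CM1 value between 2.04 and 2.30.

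**Figure D1:**
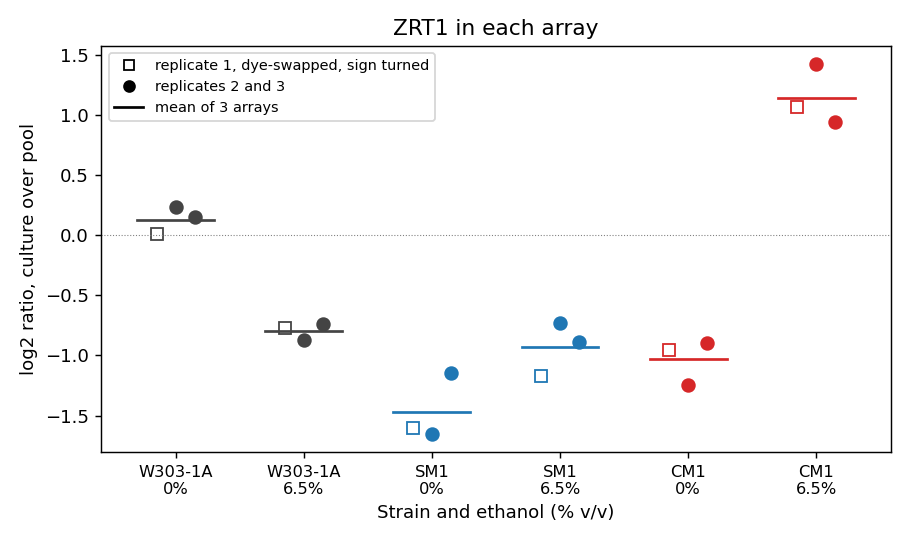
ZRT1 log2 ratio of culture over pool (y axis) in each of the 18 arrays, by strain and ethanol level (x axis); open squares are the dye-swapped replicate 1 arrays with the sign turned, filled circles replicates 2 and 3, and bars the mean of 3 arrays. CM1 at 6.5% ethanol lies between 0.94 and 1.42, above all other arrays, and both mutants at 0% lie below the parent at 0%.

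Without ethanol ZRT1 stood lower in both mutants than in the parent, by -1.60 ± 0.21 in SM1 (3.02-fold lower) and by -1.16 ± 0.21 in CM1 (2.23-fold lower). Neither mutant overlapped with the parent there. These comparisons share the 3 unstressed W303-1A cultures. At 6.5% ethanol SM1 and the parent overlapped, with a difference of -0.13 ± 0.21, while CM1 stood 1.94 ± 0.21 above the parent, 3.83-fold, with no overlap. The response to ethanol was thus 1.46 ± 0.29 greater in SM1 than in W303-1A and 3.10 ± 0.29 greater in CM1. Leaving out each array in turn kept these response differences between 1.35 and 1.61 and between 2.96 and 3.22. Quantile normalization gave 1.70 and 2.87, and put CM1 1.43 above the parent at 6.5% ethanol.

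In order of their means the groups ran from CM1 with ethanol (1.14 ± 0.25, SD, n = 3) through W303-1A without (0.13 ± 0.11) to W303-1A with ethanol (-0.80 ± 0.067), and these 3 did not overlap with each other. SM1 with ethanol (-0.93 ± 0.22), CM1 without (-1.03 ± 0.19) and SM1 without (-1.47 ± 0.28) followed, each overlapping with the group before it. The range of 2.61 between the highest and the lowest fitted group mean was greater than in 96.5% of genes. ZRT1 was also the most repeatable of the 9 genes. Its residual SD of 0.196 compares with a median of 0.394 over all genes, and its dye term of 0.059 with a median size of 0.253.

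ZRT2 (YLR130C), the lower-affinity uptake gene, had no pair of neighbouring groups apart. Its W303-1A ratios were -0.35, 0.74 and 0.41 without ethanol and -1.18, 0.63 and 0.85 with it. The SM1 ratios were -1.09, 0.38 and 0.59 without ethanol and -1.49, -0.20 and 0.27 with it, and those of CM1 were -1.06, -0.072 and 0.46 without and -1.89, 1.28 and -2.55 with it. The swapped array was the lowest of 3 in every group except CM1 with ethanol, and 15 of the 18 values as deposited were above 0. The fitted dye term was 0.70 ± 0.19, larger than in 88.2% of genes, and the residual SD of 0.857 was larger than in 93.5%. The ethanol differences were -0.16 ± 0.62 in W303-1A, -0.43 ± 0.62 in SM1 and -0.83 ± 0.62 in CM1, and the last was 0.20 without CM1 6.5% replicate 3.

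The vacuolar exporter gene ZRT3 (YKL175W) stood lower in both mutants without ethanol. Its ratios were 0.14, 0.83 and 0.31 in the parent, -0.30, -0.44 and -0.51 in SM1 and -0.49, -0.20 and -0.22 in CM1, all at 0%. Both mutants lay wholly below the parent, by -0.84 ± 0.26 (1.79-fold lower) in SM1 and -0.73 ± 0.26 (1.66-fold lower) in CM1. With ethanol the ratios were -0.86, 0.10 and 0.43 in the parent, -0.91, -0.27 and -0.13 in SM1 and -0.37, 0.43 and 0.055 in CM1. These 3 groups overlapped, and no strain's groups with and without ethanol were apart, with differences of -0.54 ± 0.26 in W303-1A, -0.021 ± 0.26 in SM1 and 0.34 ± 0.26 in CM1.

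ZRC1 (YMR243C), which loads zinc into the vacuole, varied between cultures of a group more than between groups. In W303-1A its ratios were -0.35, -0.20 and 0.95 without ethanol and -2.35, -0.37 and 0.18 with it. In SM1 they were -0.31, 0.28 and 0.72 without and -0.26, -0.75 and -0.20 with ethanol, and in CM1 -0.47, 0.21 and 0.37 without and -2.17, 2.02 and 1.07 with it. No neighbouring groups were apart, and the dye term of 0.67 ± 0.19 was larger than in 87% of genes. The ethanol differences were -0.98 ± 0.62 in W303-1A, -0.63 ± 0.62 in SM1 and 0.26 ± 0.62 in CM1. The SM1 value was -1.25 without SM1 6.5% replicate 1. The CM1 value was 1.21 without CM1 6.5% replicate 1 and -0.40 without CM1 6.5% replicate 2.

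ZAP1 (YJL056C), the regulator, was highest in the parent with ethanol, where ZRT1 was below its unstressed level. Its ratios in W303-1A were 0.16, -0.12 and -0.53 without ethanol and 0.73, 0.41 and 0.55 with it, 2 groups that did not overlap (0.73 ± 0.25, 1.66-fold higher). In SM1 they were 0.37, -0.18 and -0.45 without and 0.0012, -0.75 and -0.13 with ethanol. In CM1 they were -0.050, 0.0068 and -0.23 without and -0.52, -0.78 and -0.11 with it, so CM1 with ethanol was the lowest group for ZAP1 and the highest for ZRT1. The mutants' own ethanol differences were -0.20 ± 0.25 and -0.38 ± 0.25, with overlapping groups. At 6.5% ethanol both mutants lay wholly below the parent, by -0.86 ± 0.25 in SM1 (1.81-fold lower) and -1.04 ± 0.25 in CM1 (2.05-fold lower). At 0% they overlapped with it, at 0.072 ± 0.25 and 0.070 ± 0.25. The only neighbouring groups apart were W303-1A with ethanol and SM1 without.

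ZPS1 (YOL154W) had its highest means in the groups with ethanol, in the order CM1, SM1 and parent, but every neighbouring pair overlapped. In W303-1A the ratios were -0.10, 1.10 and 0.34 without ethanol and -0.50, 1.89 and 1.13 with it. In SM1 they were 0.45, 0.0034 and 0.75 without and 0.076, 2.21 and 1.57 with ethanol, and in CM1 0.12, 0.79 and 0.50 without and 2.95, 0.62 and 1.65 with it. The ethanol differences were 0.39 ± 0.62, 0.88 ± 0.62 and 1.28 ± 0.62 in that order. The CM1 value rested on 1 array, since it was 0.33 without CM1 6.5% replicate 1, and the response difference from the parent then went from 0.88 to -0.061.

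Of the PAQR genes, IZH1 (YDR492W) had ratios of 0.080, -0.38 and -0.13 in W303-1A without ethanol and -0.30, -1.43 and -1.26 with it. In SM1 they were -0.71, -1.28 and -1.22 without and 0.11, -1.20 and -0.75 with ethanol, and in CM1 -0.13, -0.69 and -0.23 without and -0.82, -1.05 and -1.60 with it. IZH1 stood lower with ethanol in W303-1A (-0.85 ± 0.24, groups overlapping) and in CM1 (-0.81 ± 0.24, groups apart), and higher in SM1 (0.46 ± 0.24, groups overlapping). Without ethanol SM1 lay wholly below the parent (-0.93 ± 0.24), and the response in SM1 was 1.31 ± 0.35 greater than the parent's. In CM1 IZH1 and ZRT1 thus differed in the sign of their ethanol difference.

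IZH2 (YOL002C), the family member known as the osmotin receptor of yeast, stood lower in both mutants without ethanol. Its ratios at 0% were -0.20, 1.40 and 0.60 in the parent, -1.25, -0.66 and -0.67 in SM1 and -0.89, -0.23 and -0.32 in CM1. The parent's spread was wide, yet all its cultures lay above those of either mutant, by a difference of -1.46 ± 0.28 for SM1 (2.76-fold lower) and -1.08 ± 0.28 for CM1 (2.12-fold lower). Leaving out each array in turn gave -1.64 to -1.22 and -1.26 to -0.84. With ethanol the ratios were -0.70, 0.26 and 0.73 in the parent, -0.97, -0.39 and -0.23 in SM1 and -1.41, 0.49 and 0.22 in CM1, which overlapped between the strains. The ethanol differences were -0.50 ± 0.28, 0.33 ± 0.28 and 0.24 ± 0.28 in W303-1A, SM1 and CM1, with overlap in each.

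IZH4 (YOL101C) stood lower in SM1 without ethanol and not in CM1. At 0% its ratios were 0.085, -0.21 and 0.43 in the parent, -1.91, -0.91 and -1.0 in SM1 and 0.11, 0.21 and 0.39 in CM1. SM1 lay wholly below the parent, by -1.37 ± 0.38 (2.59-fold lower), while CM1 overlapped with it at 0.13 ± 0.38. That CM1 value changed sign without W303-1A 0% replicate 2 (-0.18) or without CM1 0% replicate 1 (-0.13), and was 0.47 without W303-1A 0% replicate 1. With ethanol the ratios were -1.03, 0.23 and 0.34 in the parent, -1.98, 0 and -0.24 in SM1 and -0.12, 1.34 and 0.061 in CM1, with overlap between all 3 strains.

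**Figure D2:**
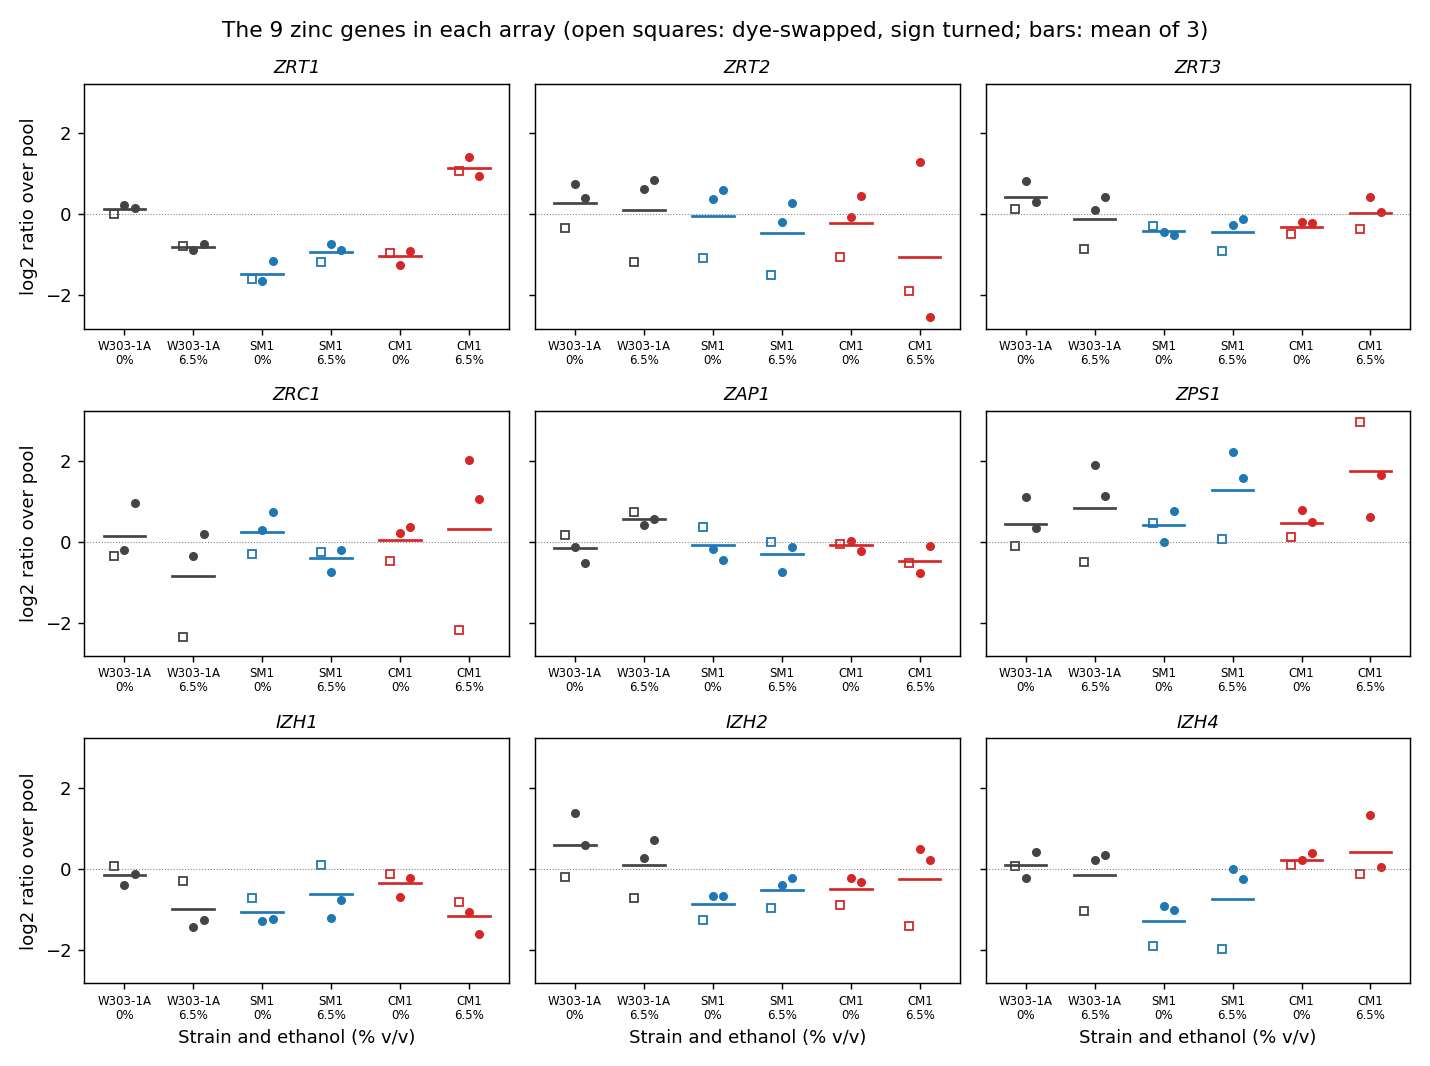
Log2 ratio of culture over pool (y axis) of the 9 zinc genes in each array, by strain and ethanol level (x axis); open squares are the dye-swapped arrays with the sign turned, circles the other arrays, and bars the mean of 3. ZRT1 has tight groups, while ZRT2, ZRC1 and ZPS1 spread widely within groups, with a CM1 ZRC1 range from -2.17 to 2.02 at 6.5% ethanol.

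Set beside all genes, the 9 were counted by whether the groups compared were apart. The rule that chose the genes used these values, so the counts describe the 9 and nothing is read from them. With ethanol, 2 of 9 had groups apart in W303-1A (ZAP1 higher and ZRT1 lower), where 26.4% of all genes did. In SM1 it was 0 of 9 against 23.6%, and in CM1 2 of 9 (ZRT1 higher and IZH1 lower) against 17.8%.

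Between strains without ethanol, 5 of the 9 lay wholly below the parent in SM1 (ZRT1, ZRT3, IZH1, IZH2 and IZH4), where 9.06% of all genes did and 15.7% had groups apart in either direction. In CM1 3 of 9 lay wholly below it (ZRT1, ZRT3 and IZH2), against 7.96% of all genes, and 13.6% in either direction. At 6.5% ethanol 1 of 9 had groups apart in SM1 (ZAP1, lower) against 25.7% of all genes. In CM1 2 of 9 did (ZRT1 higher and ZAP1 lower) against 16%. As in the ethanol comparisons, these counts are a description only.

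**Figure D3:**
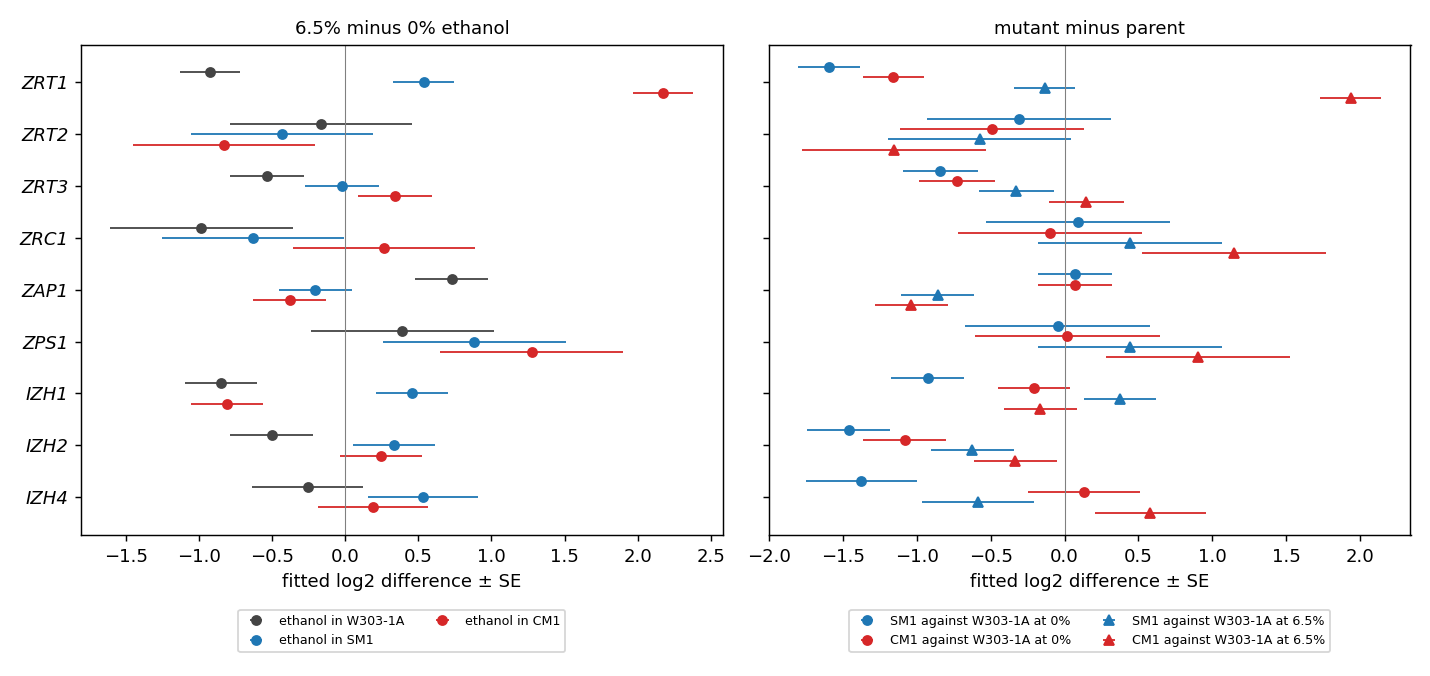
Fitted log2 differences ± SE of the 9 genes (x axis; limma, 3 arrays per group), by gene (y axis): 6.5% minus 0% ethanol in each strain on the left, mutant minus parent at each ethanol level on the right. ZRT1 lies at -0.92 in the parent, 0.54 in SM1 and 2.17 in CM1 on the left, and the SM1 and CM1 circles of ZRT1, ZRT3 and IZH2 lie below 0 on the right.

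The genes whose 6 group means lay nearest to those of ZRT1, by root mean square difference on the log2 scale, were SUR1 (0.417), YPR158C-C (0.446), MSD1 (0.505), YHC1 (0.514) and MSF1 (0.516). SUR1, a gene of sphingolipid synthesis, had fitted means of 1.67 in CM1 with ethanol, -0.80 in CM1 without, -0.61 in SM1 with ethanol and -1.21 in SM1 without. In W303-1A its fitted means were -0.47 without ethanol and -0.42 with it, where those of ZRT1 were 0.11 and -0.82. The lower ratio of ZRT1 with ethanol in the parent was thus not seen in SUR1. For ZPS1 the nearest were GDB1 (0.180), UPS2 (0.201), QCR9 (0.205), SPG5 (0.205) and NNR1 (0.219), all closer than any gene was to ZRT1. The distance was not scaled to the range of the fitted group means, which was 2.61 for ZRT1 and 1.34 for ZPS1. Likeness was measured over 6 groups only.

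On its chromosome, in the order of the RefSeq annotation (assembly R64), ZRT1 is preceded by VEL1, MNT2 and ADH4, all on the list of Zap1 targets below, and followed by FZF1 and HXK2. ADH4, an alcohol dehydrogenase gene, had ratios of 0, 0.79 and 0.038 in W303-1A without ethanol and 0.59, 1.27 and 1.16 with it. It rose with ethanol there (0.73 ± 0.25, limma adjusted p = 0.0428) where ZRT1 stood lower. In CM1 the ADH4 difference was 0.031 ± 0.25 (limma adjusted p = 0.956). MNT2, a mannosyltransferase gene, fell in W303-1A (-0.95 ± 0.32, limma adjusted p = 0.0455) and did not pass in CM1 (-0.64 ± 0.32, limma adjusted p = 0.282). VEL1 passed in no comparison and was 0.76 ± 0.46 in CM1 with ethanol (limma adjusted p = 0.383). None of these 3 passed with ethanol in CM1. The ADH4 call was lost without any of W303-1A 0% replicates 1 and 3 and 6.5% replicates 2 and 3 (adjusted p up to 0.171), the MNT2 call without any array but 6.5% replicate 1 (up to 0.185), and both with the replicate number as a block (0.0549 and 0.0533).

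A list of 26 other genes known as Zap1 targets, of which 25 were on the array, was tested in the same fit. A gene passed at a limma adjusted p under 0.05 over 5650 genes. In the counts of this and the other lists, genes said to rise or fall are those that passed. With ethanol in W303-1A 6 of 25 rose and 3 fell, where 23.9% of all genes passed (578 higher and 771 lower), with a list median of 0.45 against 0.028 over all genes. PST1, a cell wall protein gene, rose from 0.32, -0.66 and -0.14 to 1.64, 1.31 and 1.19 (1.54 ± 0.31, limma adjusted p = 0.00203). TSA1, the cytosolic peroxiredoxin, rose by 1.14 ± 0.24 (limma adjusted p = 0.00273) and PEP4, the vacuolar proteinase A, by 0.78 ± 0.21 (limma adjusted p = 0.0131). GRE2, a stress-induced reductase (1.41 ± 0.45), ADE17 of purine synthesis (1.75 ± 0.59) and ADH4 also rose. RAD27, the flap endonuclease, fell by 1.10 ± 0.26 on the log2 scale (limma adjusted p = 0.0058), as did PIS1, the phosphatidylinositol synthase, by -1.04 ± 0.25 (limma adjusted p = 0.00692), and MNT2. The GRE2 call was lost without any array of these groups but the 2 numbered 1 (limma adjusted p up to 0.129) and the ADE17 call without any but 6.5% replicate 1 (up to 0.152). The count of 9 was 5 without W303-1A 0% replicate 3, 6.5% replicate 2 or 6.5% replicate 3.

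In SM1 4 of 25 rose with ethanol and 0 fell, where 4.09% of all genes passed (160 higher and 71 lower), with a median of 0.20 against 0.00018 over all genes. TSA1 rose by 1.56 ± 0.24 (limma adjusted p = 0.00135), GRE2 by 2.66 ± 0.45 (limma adjusted p = 0.00316), CTT1, the cytosolic catalase, by 1.73 ± 0.39 (limma adjusted p = 0.0204) and PEP4 by 0.79 ± 0.21 (limma adjusted p = 0.0444). CTT1 was -0.68, -0.81 and -0.55 without ethanol and 1.06, 1.04 and 1.06 with it, and its response was 2.42 ± 0.56 greater than the parent's (limma adjusted p = 0.0188), the only 1 of the 25 to pass for that difference, where 6.37% of all genes did. CTT1 lost both calls without SM1 0% replicate 2, SM1 0% replicate 3 or SM1 6.5% replicate 1 (limma adjusted p up to 0.111 and 0.0633). PEP4 lost its call without any array of SM1 but 0% replicate 2 (up to 0.204). The count of 4 was 2 without SM1 0% replicate 3, and 2 of 25 passed for the response difference without W303-1A 0% replicate 1.

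In CM1, where ZRT1 stood highest, 4 of 25 rose with ethanol and 0 fell, where 5.61% of all genes passed (219 higher and 98 lower), with a median of 0.34 against -0.012. PST1 rose by 1.93 ± 0.31 (limma adjusted p = 0.00129) from -1.98, -1.91 and -2.10 to 0.47, -1.06 and 0.39. PRC1, the vacuolar carboxypeptidase Y, rose by 1.43 ± 0.27 (limma adjusted p = 0.00539), PEP4 by 1.25 ± 0.21 (limma adjusted p = 0.00176) and TSA1 by 0.98 ± 0.24 (limma adjusted p = 0.0234). Zap1 targets that did not pass in CM1 included ADH4, VEL1 and DPP1, a vacuolar lipid phosphatase gene (-0.51 ± 0.49). Others that did not pass were GRE2 (1.45 ± 0.45, limma adjusted p = 0.0749) and ADE17 (1.56 ± 0.59, limma adjusted p = 0.142). RAD27 did not pass either (-0.85 ± 0.26, limma adjusted p = 0.0656). Of the 25 differences 19 lay above 0 and 6 below, and 9 had an unadjusted p under 0.05. Only PIS1 passed for the response difference between CM1 and the parent (1.29 ± 0.35, limma adjusted p = 0.0491, or 0.0683 with the replicate number as a block, which left 0 of 25), where 4.65% of all genes did. The PIS1 ethanol difference within CM1 was 0.25 ± 0.25 (limma adjusted p = 0.603), where that in W303-1A was -1.04. The TSA1 call was lost without CM1 0% replicate 1 or 3 or CM1 6.5% replicate 1 or 3 (limma adjusted p up to 0.104). The PIS1 call was lost without 9 of the 12 arrays, namely all but W303-1A 0% replicate 1, CM1 0% replicate 1 and CM1 6.5% replicate 1 (up to 0.136), and without CM1 6.5% replicate 1 the count was 3 of 25.

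Between the strains without ethanol 3 of 25 Zap1 targets passed as lower than the parent in each mutant and 0 as higher. The medians were -0.089 in SM1 and -0.073 in CM1, and 10 of the 25 differences in SM1 and 11 in CM1 lay above 0. Over all genes 88 passed as lower and 10 as higher in SM1 (1.73%), and 63 as lower and 6 as higher in CM1 (1.22%). The calls of the whole array thus also ran mostly downward. PEP4 was lower by -1.19 ± 0.21 in SM1 (limma adjusted p = 0.00734) and by -1.05 ± 0.21 in CM1 (limma adjusted p = 0.0162). PRC1 was lower by -1.19 ± 0.27 (limma adjusted p = 0.0389) and by -1.38 ± 0.27 (limma adjusted p = 0.0164). TSA1 was lower in SM1 (-1.02 ± 0.24, limma adjusted p = 0.0405) and PST1 in CM1 (-1.84 ± 0.31, limma adjusted p = 0.00395). With the replicate number as a block, TSA1 (0.0599) and PRC1 (0.0506) were lost in SM1, which left 1 of 25. Leaving out any 1 of the 6 arrays left 1 of 25 in SM1 (PEP4), or 0 without SM1 0% replicate 3 (7 at an unadjusted p under 0.05). In CM1 1 of 25 was left without W303-1A 0% replicate 3 or any CM1 0% array, and the PST1 call held in each of these fits.

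At 6.5% ethanol, where ZAP1 stood lower in both mutants, 3 of 25 passed as higher than the parent in SM1 and 4 as lower. In CM1 1 passed as higher and 2 as lower. Of all genes 17.5% passed in SM1 and 12.2% in CM1, where the list had 28% and 12%. PST1 was lower by -2.23 ± 0.31 in SM1 (limma adjusted p = 0.000269) and by -1.45 ± 0.31 in CM1 (limma adjusted p = 0.00751). DPP1 (-2.18 ± 0.49, limma adjusted p = 0.00763), PEP4 (-1.18 ± 0.21, limma adjusted p = 0.0014) and ADH4 (-0.91 ± 0.25, limma adjusted p = 0.0197) were lower in SM1, and TSA1 (-1.05 ± 0.24, limma adjusted p = 0.0107) in CM1. UTH1, which codes for a protein of the cell wall and mitochondria, was higher in both, by 0.82 ± 0.23 (limma adjusted p = 0.024) and 1.21 ± 0.23 (limma adjusted p = 0.00381). RAD27 was higher in SM1 (1.38 ± 0.26, limma adjusted p = 0.00207), as was CTT1 (1.23 ± 0.39, limma adjusted p = 0.0424). The CTT1 call was lost without any 1 of the 6 arrays (limma adjusted p up to 0.166) and with the replicate block (0.0543). The ADH4 call was lost without W303-1A 6.5% replicate 2 or 3 or SM1 6.5% replicate 2, and that of UTH1 in SM1 without W303-1A 6.5% replicate 1 or 3 or SM1 6.5% replicate 2 or 3 (both up to 0.0827). The SM1 count of 7 was 4 without W303-1A 6.5% replicate 3 or SM1 6.5% replicate 2, and the CM1 count of 3 was 5 without CM1 6.5% replicate 3.

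Among 6 other genes of zinc transport, 1 passed in any of the 9 comparisons. It passed for ethanol in W303-1A, where 16.7% of this list and 23.9% of all genes did. In the other comparisons 0 of 6 passed, against 1.22% to 17.5% of all genes. ZRG17, which codes for a zinc transporter subunit of the endoplasmic reticulum, fell with ethanol in W303-1A (-0.92 ± 0.29, limma adjusted p = 0.0299), though its groups overlapped. That call was lost without W303-1A 0% replicate 2 or 6.5% replicate 1 or 3 (limma adjusted p up to 0.153). COT1, the paralogue of ZRC1 in the vacuole membrane, was at -0.71 ± 0.29 with ethanol in CM1 (limma adjusted p = 0.179), with its groups apart. FET4, a low-affinity metal transporter gene, was 2.10 ± 0.81 higher in CM1 than in the parent at 6.5% ethanol and did not pass (limma adjusted p = 0.104).

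Of 9 genes of zinc-dependent enzymes, 4 rose and 1 fell with ethanol in W303-1A, 2 rose and 0 fell in SM1, and 6 rose and 0 fell in CM1, against the 23.9%, 4.09% and 5.61% of all genes given above. NCE103, the carbonic anhydrase, rose most of the 9 in all 3 strains. Its ratios went from -0.16, -0.32 and 1.17 to 2.50, 2.96 and 3.60 in W303-1A (2.79 ± 0.33, limma adjusted p = 4.73e-05), from 0.04, 0.79 and 0.34 to 3.43, 3.41 and 3.20 in SM1 (2.96 ± 0.33, limma adjusted p = 9.54e-05), and from -0.11, 0.33 and 0.53 to 3.13, 3.06 and 3.27 in CM1 (2.90 ± 0.33, limma adjusted p = 7.84e-05). APE1, the vacuolar aminopeptidase, rose in the parent (1.33 ± 0.25, limma adjusted p = 0.00126) and in CM1 (1.82 ± 0.25, limma adjusted p = 0.000375). SOD1, the copper and zinc superoxide dismutase, rose by 0.92 ± 0.18 (limma adjusted p = 0.00197) and 0.99 ± 0.18 (limma adjusted p = 0.00385) in the same 2 strains. PHO8, the vacuolar alkaline phosphatase, rose in CM1 (1.00 ± 0.24, limma adjusted p = 0.0212), a call lost without CM1 0% replicate 2 or 3 or CM1 6.5% replicate 3 (up to 0.104).

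The alcohol dehydrogenase gene ADH1, whose product is an abundant zinc protein, rose with ethanol in W303-1A from 0.40, -0.80 and 0.33 to 1.31, 2.07 and 1.54 (1.66 ± 0.32, limma adjusted p = 0.00171). In CM1 it rose from -2.39, -1.83 and -2.46 to -1.11, -0.46 and -0.98 (1.38 ± 0.32, limma adjusted p = 0.0204). It was lower in CM1 than in the parent at both levels, by -2.20 ± 0.32 (limma adjusted p = 0.00106) and -2.49 ± 0.32 (limma adjusted p = 0.000242), so that in CM1 with ethanol ADH1 was below the pool and ZRT1 above it. In SM1 it was lower at 6.5% ethanol (-1.77 ± 0.32, limma adjusted p = 0.00179). The ADH1 call for ethanol in CM1 was lost without CM1 0% replicate 1 or 3 or CM1 6.5% replicate 2 (up to 0.101). ADH3, the mitochondrial form, went from -0.02, 1.34 and 0.89 to -0.94, -0.12 and -0.36 in W303-1A (-1.21 ± 0.27, limma adjusted p = 0.00473). Its response was 1.84 ± 0.39 greater in SM1 (limma adjusted p = 0.0127) and 2.16 ± 0.39 greater in CM1 (limma adjusted p = 0.00658), and both held with each array left out. The ADH3 ethanol differences within SM1 (0.63 ± 0.27, limma adjusted p = 0.235) and within CM1 (0.95 ± 0.27, limma adjusted p = 0.0556) did not pass. With no dye term the SM1 response call was lost. At 6.5% ethanol ADH3 was higher than in the parent by 1.07 ± 0.27 in SM1 (limma adjusted p = 0.0144, or 0.0511 without SM1 6.5% replicate 2) and by 1.28 ± 0.27 in CM1 (limma adjusted p = 0.00787). This SM1 call too was lost with no dye term. The CM1 call at 6.5% ethanol was lost under quantile normalization and with only the groups compared. The ADH genes are similar in sequence, and whether their probes read each other's RNA was not tested.

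FBA1, the zinc-dependent aldolase of glycolysis, rose with ethanol from -0.95, -0.95 and -0.99 to 0.47, 0.23 and 0.41 in SM1 (1.34 ± 0.25, limma adjusted p = 0.00615) and from -2.76, -2.61 and -3.10 to -0.40, -0.77 and -0.80 in CM1 (2.16 ± 0.25, limma adjusted p = 8.71e-05). It was 7.03-fold lower in CM1 than in the parent without ethanol (-2.81 ± 0.25, limma adjusted p = 1.51e-05). Its response in CM1 was 1.47 ± 0.36 greater than the parent's (limma adjusted p = 0.0276), a call lost without W303-1A 0% replicate 1 or 3, W303-1A 6.5% replicate 1 or CM1 0% replicate 1 or 3 (up to 0.0903). Without ethanol APE1 was lower in SM1 (-1.15 ± 0.25, limma adjusted p = 0.0283) and CM1 (-1.21 ± 0.25, limma adjusted p = 0.0212), and PHO8 in CM1 (-1.03 ± 0.24, limma adjusted p = 0.049, or 0.0651 with the replicate block). The APE1 call in SM1 and the PHO8 call were lost without any 1 of their 6 arrays, and the APE1 call in CM1 without W303-1A 0% replicate 1 or 2 or CM1 0% replicate 2 or 3. Between the strains without ethanol, 0 of the 9 enzyme genes passed as higher, and 1 passed as lower in SM1 and 4 in CM1. Of all genes 1.73% and 1.22% passed in either direction, and 3 of the 9 enzyme differences lay above 0 in each mutant. At 6.5% ethanol 1 passed as higher (ADH3) and 3 as lower (ADH1, APE1 and SOD1) in SM1, where 17.5% of all genes passed. In CM1 1 passed as higher (ADH3) and 2 as lower (ADH1 and FBA1), where 12.2% did. The SOD1 call was lost without W303-1A 6.5% replicate 2 or SM1 6.5% replicate 2 or 3 (limma adjusted p up to 0.0718). It was also lost under quantile normalization and with only the groups compared.

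**Figure D4:**
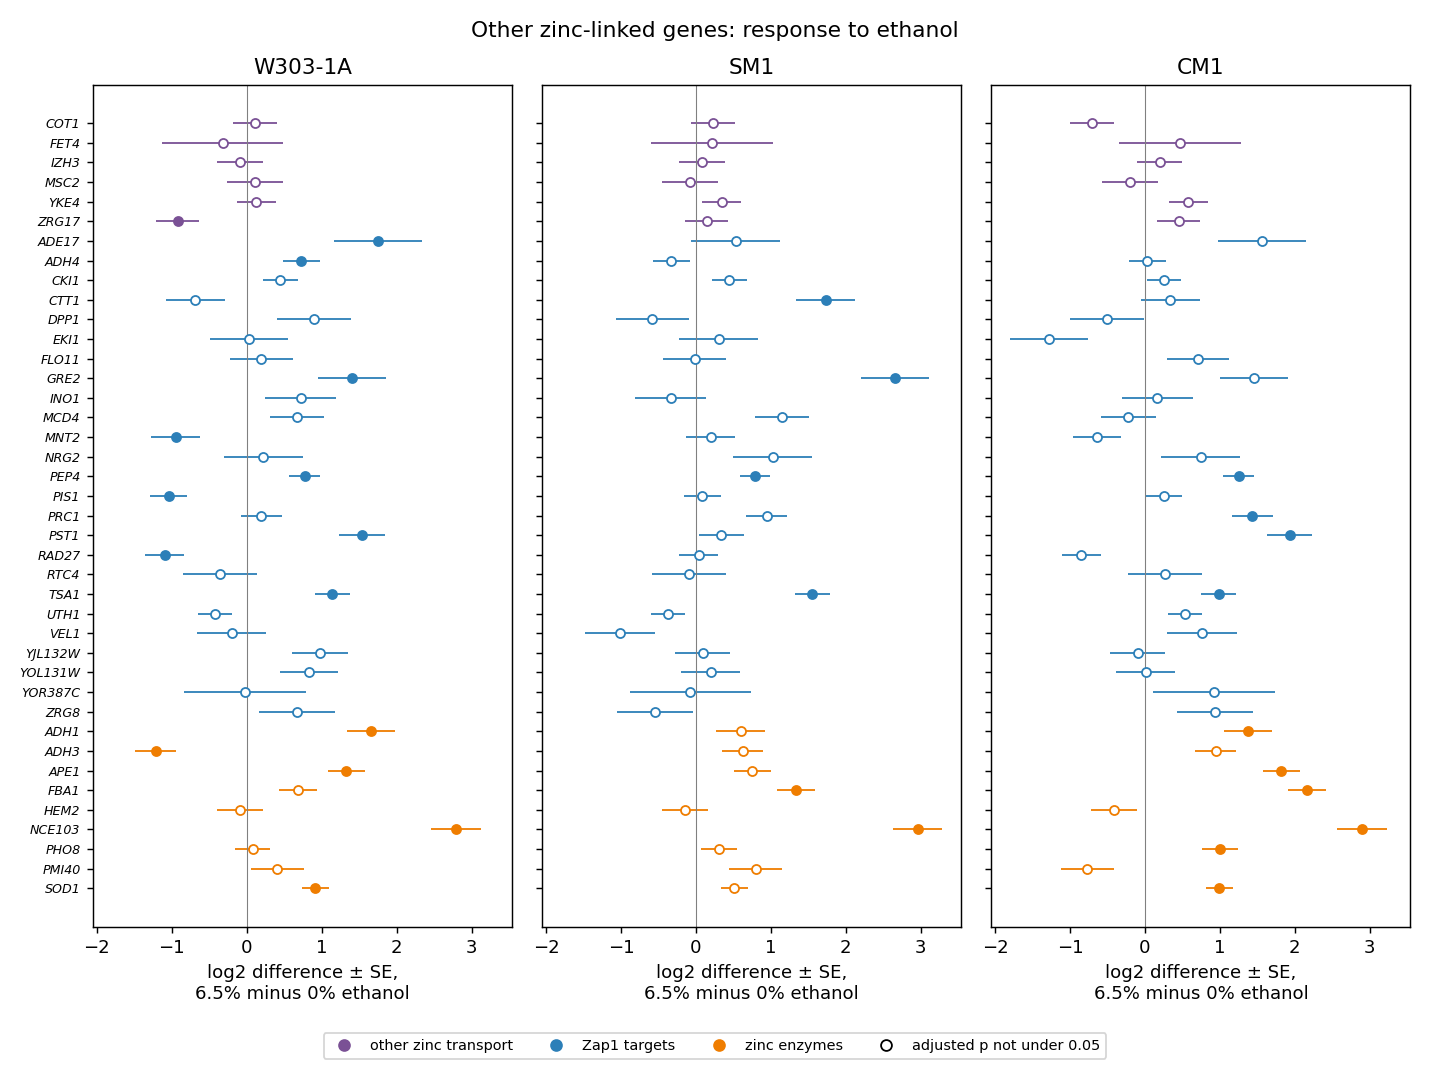
Fitted log2 differences ± SE between 6.5% and 0% ethanol (x axis; limma, 3 arrays per group) for 6 other zinc transport genes, 25 Zap1 targets and 9 zinc enzyme genes (y axis), by strain; filled points passed the adjusted p threshold of 0.05. NCE103 lies at 2.79, 2.96 and 2.90 in the 3 strains, and 4 Zap1 targets are filled on the right of 0 in each mutant.

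Of the 64 calls of listed genes over the 9 comparisons, 38 held with each array left out in turn, and 24 held in every fit made except that with no array turned. The PIS1 and PEP4 calls for ethanol in W303-1A, for example, held with each array left out but were lost under quantile normalization and with no dye term. The ZRG17 call was lost under both of these too. All 64 were lost if the arrays were read without turning the swapped ones, so each depends on that turning. Without it only 0 to 8 of all genes were called in each comparison.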

How the data were processed

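RNA of 18 cultures of 3 strains was measured on dual-colour arrays against a common pool. The deposited values are taken as log2 ratios of the 2 channels, 1 column per array, with column medians of -0.0041 to 0.030. The authors' log base, centring, background correction and ratio direction are not given in the sources used here, and another base would multiply every value by 1 factor. Columns were read as red over green, as the signs of HSP12 imply, and the 6 arrays that the labels give as swapped were multiplied by -1. Over 81 pairs of arrays of 1 orientation the lowest correlation across genes was 0.207. No further per-sample columns were left unused (0). Of 6368 probes 5673 carried 1 gene symbol in GEO's platform annotation, 0 several and 695 none. Averaging the probes of 23 genes that had 2 gave 5650 genes, and 0 values were missing. Spot intensities were not used here, so the number of arrays limits the precision.

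limma 3.58.1 under R 4.3.3 was fitted to all 18 arrays with 6 group means and a dye orientation term (lmFit, eBayes), and p-values were adjusted by Benjamini-Hochberg over 5650 genes with a threshold of 0.05. The 9 comparisons were ethanol in each strain, each mutant against W303-1A at each ethanol level, and both mutants' response differences. The fit was checked on simulated data. Groups were apart when no array of one lay within the range of the other. The members and lists were chosen with earlier results of these data known. Named genes are the 9 members, all listed genes called, the 4 genes of smallest p per list and ethanol comparison, and the 5 nearest to ZRT1 and to ZPS1. The neighbours of ZRT1 on its chromosome were named as well, and HSP12 for the ratio direction. Of 26 Zap1 targets 25 were matched by symbol, and LAP4 on the enzyme list is APE1. Locus tags and gene order come from RefSeq R64. No genome sequence was used here, so the planned motif search was not made.

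Same-numbered arrays of different groups deviated together in all 45 pairs (correlations 0.195 to 0.751), so the replicate number was also fitted as a block. Number 1 is the swapped array. Replicate 2 minus replicate 3 did not correlate between groups (15 pairs, -0.170 to 0.093, median -0.0039). Alternatives were quantile normalization, no dye term, the replicate block, only the groups compared, array weights, no array turned, each array left out, and, added after seeing the data, removal of a running median over 101 probes.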

Additional observations from a re-analysis of the deposited data

Results flagged for a closer look

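ZRT1 moved in opposite directions with ethanol in CM1 and in the parent, with all 3 arrays of CM1 at 6.5% above all 3 at 0% and all 3 of W303-1A at 6.5% below all 3 at 0%. The responses differed by 3.10 ± 0.29, and no test of that difference is given, since the gene was chosen from these values.

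The other results are genes whose ethanol response differed from the parent's by the limma test of the difference itself. CTT1 had a response 2.42 greater in SM1 (limma adjusted p = 0.0188). ADH3 had one 1.84 greater in SM1 (limma adjusted p = 0.0127) and 2.16 greater in CM1 (limma adjusted p = 0.00658). The ADH3 ethanol difference itself was -1.21 in W303-1A, and in SM1 (0.63) and CM1 (0.95) it did not pass. FBA1 had a response 1.47 greater in CM1 (limma adjusted p = 0.0276), and PIS1 one 1.29 greater there (limma adjusted p = 0.0491, or 0.0683 with the replicate block). The PIS1 ethanol difference itself was -1.04 in W303-1A, and in CM1 (0.25) it did not pass. With each of the 12 arrays left out in turn, the ADH3 calls held, while that of PIS1 was lost in 9 fits, that of FBA1 in 5 and that of CTT1 in 3, without the arrays named in the report. With no dye term, only the ADH3 call in CM1 held among these tested results.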

How the results depend on the processing

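Counts of called Zap1 targets (of 25) are given here where they left the range within 1.5 times of the reported count, in the order of comparison named, and the causes were not tested. Under quantile normalization 3 were called for ethanol in W303-1A (reported 9), 6 and 5 for SM1 and CM1 against W303-1A at 0% (3 and 3), and 4 and 0 at 6.5% (7 and 3). Over all genes 873, 324, 268, 545 and 185 were called there (reported 1349, 98, 69, 989 and 692). With no dye term the list counts were 3, 2 and 2 for ethanol in W303-1A, SM1 and CM1 (9, 4 and 4), 0 and 1 for the mutants at 0%, 4 for SM1 at 6.5%, and 0 and 0 for the response differences of SM1 and CM1 (1 and 1). Over all genes they were then 791, 112, 142, 34, 42, 511, 106 and 74 (reported 1349, 231, 317, 98, 69, 989, 360 and 263). The replicate block gave 1 for SM1 at 0% and 0 for the CM1 response difference and lost MNT2, ADH4, TSA1, PRC1, PHO8, CTT1 and PIS1 as given in the report, and it lost no other call of a listed gene. Over all genes the block called 73 for SM1 at 0% and 239 for the CM1 response difference (reported 98 and 263). Array weights gave 6 and 5 at 0% and 7 for the SM1 response difference. All-gene calls were then 483, 360 and 870 (reported 98, 69 and 360). With only the groups compared, 0 were called for ethanol in CM1 and for CM1 at 6.5%, and 2 and 0 for the response differences, where fewer arrays estimate the spread. All-gene calls were then 19, 40, 378 and 114 (reported 317, 692, 360 and 263). With the probe trend removed 0 and 1 were called at 0%, and 0 for the CM1 response difference. All-gene calls were then 81, 61 and 155 (reported 98, 69 and 263). With no array turned 0 were called in each of the 9 comparisons in limma (0 to 2 at an unadjusted p under 0.05, and 3 to 7 beside the other counts of 0), and CTT1 (-0.077) and DPP1 (0.31) in SM1 at 6.5% and the FBA1 response difference in CM1 (-0.083) changed sign. Over all genes that setting called 0 to 8 per comparison. Leaving out 1 array at a time gave 5 to 9, 2 to 3 and 3 to 6 for ethanol in W303-1A, SM1 and CM1, 0 to 1 and 1 to 2 for SM1 and CM1 at 0%, 4 to 7 and 3 to 5 at 6.5%, and 0 to 2 and 0 to 3 for the response differences. Over all genes the ethanol ranges were 933 to 1226, 113 to 209 and 141 to 402. At 0% they were 32 to 62 and 38 to 61, and at 6.5% 616 to 854 and 392 to 1048. For the response differences they were 151 to 367 and 98 to 577.

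For the 9 zinc genes, 34 of 81 differences moved by more than the spread between replicates with no array turned. The number was 11 under quantile normalization, 2 with array weights and 1 with the probe trend removed. It was 0 with no dye term, with the replicate block and with only the groups compared. With single arrays left out, 7 fitted values moved and 587 did not, and IZH4 in CM1 against W303-1A at 0% gave 3 of those 7. ZRT1 kept its sign under every setting in every comparison but SM1 against W303-1A at 6.5%, which was 0.047 with the probe trend removed and 0.13 with no array turned. Its ethanol difference in CM1 was 0.83 with no array turned. Every ZRT1 comparison but ethanol in CM1 was among the 11 moved by quantile normalization. That setting gave -0.71 and 0.99 for ethanol in W303-1A and SM1. It gave -2.04 and -1.44 for SM1 and CM1 against W303-1A at 0%, and -0.34 and 1.43 at 6.5%. The ZRT1 response differences became 1.70 and 2.87. The ZRT2 response difference in CM1 was -2.00 with array weights.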
